A study of Mus musculus with 30 samples.

Results

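Expressed solute carrier genes, 125 of the 22477 genes in the RNA-seq table, are described here in mouse secondary iPSCs that left pluripotency and were then given the chance to regain it. A gene was taken when its symbol was Slc followed by a number and its value reached 10 FPKM (fragments scaled to transcript length and to library size) in at least 1 of the 15 conditions. Slc2a1 and Slc2a3 were left out by name, which left 125 of the 353 genes with such symbols, and 226 lay under the limit. All cells carried transgenes for the reprogramming factors OSKM (Oct4, Sox2, Klf4 and cMyc) under control of doxycycline (dox), GFP in the Nanog locus and a nuclear RFP. The 30 samples formed 15 conditions of 2 replicates each. Cells were collected after 0, 24, 36, 48, 60, 72 and 96 h in N2B27 medium without 2i/LIF, the inhibitor and cytokine mixture that holds mouse pluripotent cells in the naive state. The other 8 conditions were cells that had differentiated for 0, 24, 48 or 96 h and were re-seeded in serum/LIF either alone (–dox) or with dox at 2 µg/ml (+dox), which switches the OSKM transgenes on. The line was kept on mouse embryonic fibroblast feeders in serum/LIF before 2i/LIF. The methods describe seeding on gelatin before withdrawal and re-seeding on feeders for colony counts, and do not say on what the re-seeded cells for RNA-seq grew. The re-seeded cells had 48 h with or without dox, so each was collected later than the timepoint it is named for.

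The deposited table has a single FPKM entry for each gene in each condition, made by the authors' software from both replicates together. No value below therefore carries a replicate spread or a test, and the number of reads behind it is not known. A gene is called changed, or said to have risen or fallen, when its values were 2-fold or more apart with the higher at 1 FPKM or above. Counts of changed members are set beside the background, which is the share of changed genes among all 9069 genes that reached 10 FPKM in some condition. Where RNA of a whole culture falls, fewer cells of a type and less RNA per cell cannot be told apart.

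Solute carriers are membrane proteins that move nutrients, ions, metals, nucleotides and metabolites across the plasma membrane and the membranes of organelles. They work by facilitated diffusion, by exchange, or by coupling a substrate to the gradient of sodium, protons or another ion, and some are obligate pairs of a light and a heavy chain. Pluripotent cells of the mouse are known for their high demand for glucose, glutamine and other amino acids, and for a change in the balance of glycolysis and mitochondrial respiration as they leave the naive state. By the known substrates of their families, the members fell into 10 classes of carriers. These held 25 members of the mitochondrial carrier family (Slc25) and 18 amino acid, peptide and creatine carriers. Next came 17 inorganic ion exchangers and cotransporters, 15 metal and haem carriers and 13 nucleotide sugar and related carriers of the ER and Golgi. Smaller classes were 10 lipid, choline and organic ion carriers, 7 sugar and polyol carriers and 6 nucleoside and nucleobase carriers. The last were 6 vitamin and folate carriers and 4 monocarboxylate carriers. A further 4 genes have a carrier's name but encode no carrier. They include Slc9a3r1 and Slc9a3r2, scaffold proteins that bind a sodium/proton exchanger, and Slc4a1ap, an adaptor protein. The fourth, Slc7a6os, lies beside Slc7a6 on the other strand.

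The membership limit fell between genes of similar level. Slc29a3 entered with 10.5 FPKM at 24 h, Slc12a8 with 10.7 in 0 h +dox and Slc35a3 with 10.7 in 96 h +dox. Slc35c1 with 9.56 FPKM, Slc11a2 with 9.48 and Slc52a3 with 9.32 stayed outside. Summed over all genes, a condition held from 603278 to 832607 FPKM, between 2756 and 5090 genes were listed at 0, and scaling factors from median ratios ran from 0.99 to 1.03. The label of the cells was checked against markers. The summed level of 10 naive pluripotency markers was 1273.7 FPKM at 0 h and 39.1 at 96 h. Of 5 general pluripotency markers, 2 were lower and 2 higher at 96 h than at 0 h (background 12.4% each). Pou5f1 (Oct4) stood at 199.3 FPKM at 0 h and 25.5 at 96 h. Utf1 stood at 62.5 and 253.5 and Lin28a at 30.6 and 188.1 at the same times. The sum of the 5 was 650.9 and 614.7. Markers of fibroblasts, all 20 of which were in the table, moved too. Their sum was 2087.1, 724.0, 216.6 and 350.9 FPKM at 0, 24, 60 and 96 h, and in the re-seeded cells it ran from 284.7 in 24 h –dox to 980.2 in 96 h –dox. The collagen gene Col1a1 stood at 228.7 FPKM at 0 h, 5.64 at 96 h, 1.45 in 0 h –dox and 33.2 in 96 h –dox. The fibroblast proteoglycan genes Lum and Dcn were at 14.8 and 71 FPKM at 0 h, but at 0.0605 and 0.791 in 96 h –dox.

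**Figure D1:**
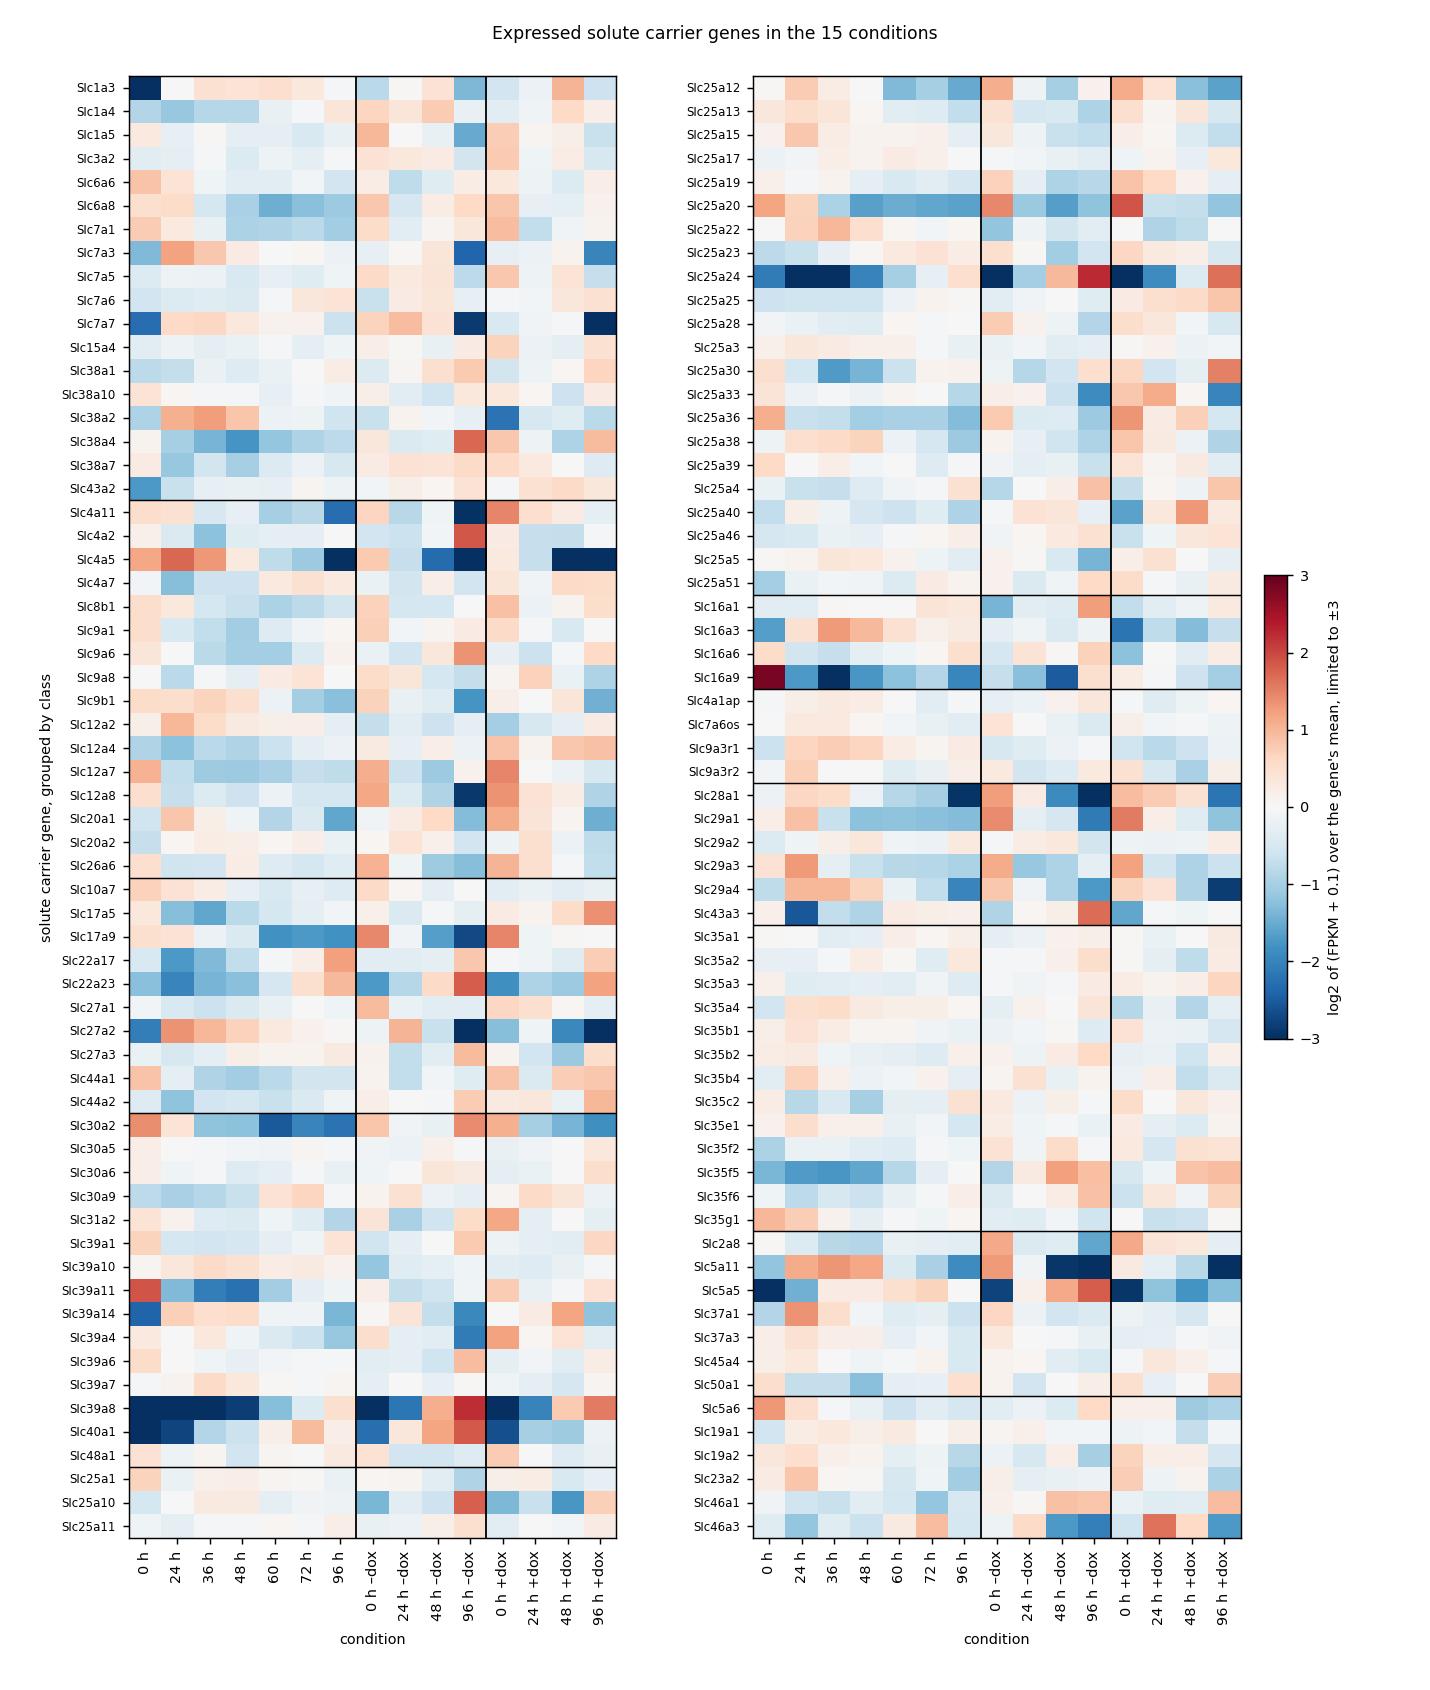
Levels of 124 of the 125 members (rows, grouped by class, classes parted by horizontal lines) in the 15 conditions (columns), as the log2 of the FPKM value plus 0.1 over the gene's mean over the conditions, limited to 3 in either direction. Red is above and blue below the gene's own mean. Slc5a5, Slc39a8, Slc40a1 and Slc25a24 run from blue at 0 h to red in 96 h –dox, while Slc4a5 runs the other way. Slc28a1 is red in 0 h –dox and blue in 96 h –dox.

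Stretches of promoter are shown for 6 members whose levels are followed below, because 3 known regulatory motifs of nutrient carriers and pluripotency genes were looked for in the RefSeq promoter windows. A window covers 250 bases before and 50 after an annotated start on GRCm38 (mm10), and 99 of the 125 members had 1 or more. On either strand, the E-box CACGTG, bound by MYC and other basic helix-loop-helix proteins, was in a window of 16 members (16.2%), of 12.4% of the genes that reached 10 FPKM and of 8.09% of all genes with a window. The amino acid response motif TGATGNAA (CARE), the kind of site bound by ATF4, was in 3 members (3.03%, against 2.52% and 4.51%). The octamer ATGCAAAT, bound by OCT4 and its relatives, was in 1 member, Slc35a2 (1.01%, against 1.56% and 1.97%). A match describes letters in a window and is not a measured site. The stretches lie before the annotated start of their window, read 5′ to 3′, and the capitals mark the E-box in the first 5 and the CARE motif in Slc7a7. In Slc29a1 and Slc39a8 that start is an internal one, and the stretch lies within the annotated gene.
Slc25a36, chr9:97111173-97111278, minus strand: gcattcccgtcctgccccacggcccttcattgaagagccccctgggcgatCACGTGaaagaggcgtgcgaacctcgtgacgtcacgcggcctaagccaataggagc
Slc20a1, chr2:129198548-129198653, plus strand: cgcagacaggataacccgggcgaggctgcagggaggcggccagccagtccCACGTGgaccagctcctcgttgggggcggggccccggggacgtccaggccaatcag
Slc29a1, chr17:45595266-45595371, minus strand: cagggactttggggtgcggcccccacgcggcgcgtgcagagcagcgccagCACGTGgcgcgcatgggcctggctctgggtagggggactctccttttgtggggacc
Slc16a1, chr3:104638414-104638519, plus strand: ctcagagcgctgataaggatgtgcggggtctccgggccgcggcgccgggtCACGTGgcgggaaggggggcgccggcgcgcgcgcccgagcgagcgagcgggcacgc
Slc39a8, chr3:135825536-135825641, plus strand: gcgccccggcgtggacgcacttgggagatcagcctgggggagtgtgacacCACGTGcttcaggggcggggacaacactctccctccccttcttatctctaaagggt
Slc7a7, chr14:54418028-54418135, minus strand: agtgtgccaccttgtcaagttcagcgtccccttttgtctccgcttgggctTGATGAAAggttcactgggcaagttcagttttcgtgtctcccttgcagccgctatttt
The motif begins 187 bases before the start of the window's transcript in Slc25a36, 175 in Slc20a1, 75 in Slc29a1, 200 in Slc16a1, 71 in Slc39a8 and 141 in Slc7a7. Of the 16 members with an E-box, 1 was higher and 7 were lower at 96 h than at 0 h. Of all members, with or without a window, 23.2% were lower, and of all genes 12.4%. The share among other genes with an E-box was not counted, and a link between the motif and the falls was not tested.

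The highest values belonged to carriers of the mitochondrial inner membrane. Slc25a5 (ANT2), which exchanges ADP for ATP, lay between 170.5 FPKM in 96 h –dox and 611.0 in 24 h +dox. Slc25a3, the mitochondrial phosphate carrier, lay between 272.2 and 429.5 FPKM, and Slc25a39, a carrier needed for mitochondrial glutathione, between 130.4 and 315.8. With Slc25a4 (ANT1) and Slc3a2, the heavy chain of amino acid exchangers, these genes made up from 28.7% to 40.4% of the summed FPKM of the members in a condition. In all, 16 members (12.8%) reached 100 FPKM somewhere, against 18.7% of all genes at the same limit. Breadth differed in the same sense. Only 37 members (29.6%) stayed at 10 FPKM or more in all 15 conditions, against 51.9% of genes, and 15 (12%) reached it in 1 condition, against 7.6%. Of those 15, 5 did so in 96 h –dox, among them Slc4a2, an anion exchanger, and Slc43a3, a purine nucleobase carrier, and 3 in 0 h +dox. The median of the highest values was 24.3 FPKM for members and 34.8 for all genes. The median ratio of the highest to the lowest condition was 3.79 for members and 2.84 for all genes, and 29 members (23.2%) spanned 10-fold or more, against 15.5%. At the other end, 13 members (10.4%) stayed within 2-fold, against 20.4%.

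Between some pair of the 7 timepoints, 85 of the 125 members (68%) changed, beside a background of 48.8%. Members have lower levels than genes at large, so the shares were also set side by side by highest value. They were 66% of 50 members with 10 to 20 FPKM against 55.9% of genes, 73.5% of 49 members with 20 to 50 against 48.3%, and 61.5% of 26 members above that against 44.1%. The members were above the background in each range. The timepoint of the highest value was 0 h for 42 members (33.6%, against 22.7% of all genes) and 24 h for 25 (20%, against 18.7%). It was 96 h for 19 members (15.2%, against 22.2%) and 48 h for 2 (1.6%, against 7.6%). Carriers thus more often stood highest in 2i/LIF and less often at the end of withdrawal than genes at large, as a description of 1 value per condition. Which comparison had which share is drawn in the plot of changed shares.

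**Figure D2:**
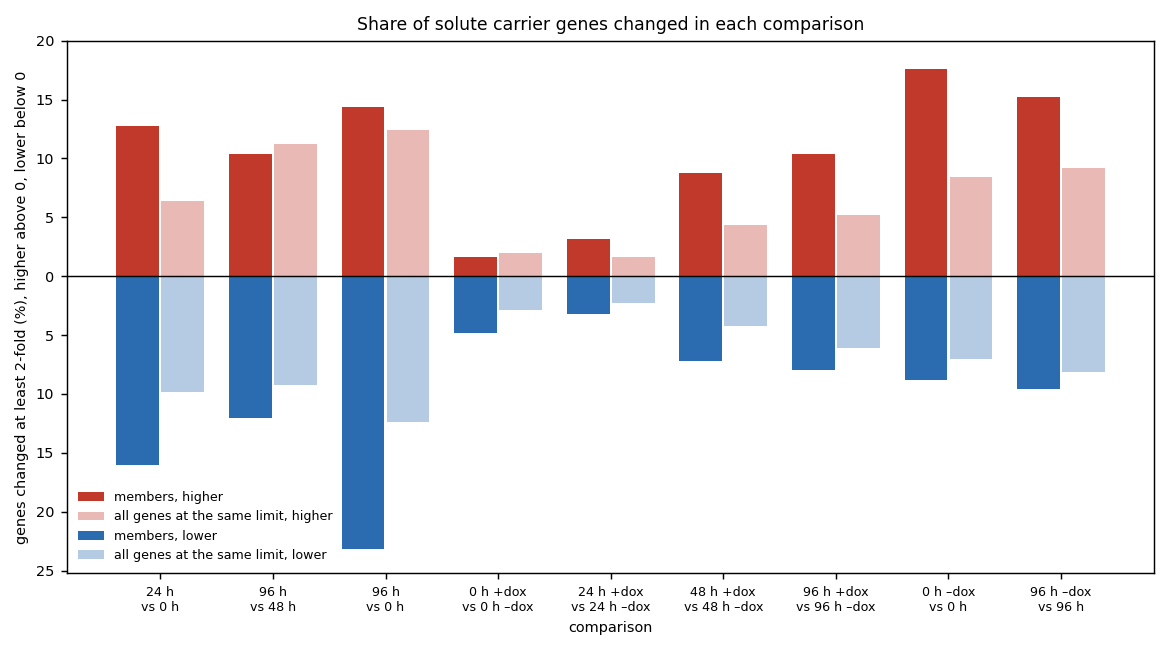
Share of genes (%) changed at least 2-fold in 9 comparisons, with higher genes above and lower genes below 0; full colour is the 125 members and pale colour all 9069 genes that reached 10 FPKM. Members lay above the background in both directions in 7 of the comparisons, while fewer members than background were higher in 96 h against 48 h (10.4% against 11.2%) and in 0 h +dox against 0 h –dox (1.6% against 2.01%).

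The first day without 2i/LIF showed changes in both directions. At 24 h, 16 members (12.8%) were higher than at 0 h, beside a background of 6.37%, and 20 (16%) were lower, beside 9.81%. The median log2 ratio was -0.06 for members and 0.03 for all genes. Between 48 h and 96 h, 13 members were higher (background 11.2%) and 15 lower (background 9.23%), with medians of 0.00 and -0.05. From 0 h to 96 h, 18 members (14.4%) were higher and 29 (23.2%) lower, each beside a background of 12.4%, with a median of -0.19 for members and -0.04 for all genes. At the 2-fold limit, the larger count on the lower side at 96 h thus had no counterpart among genes at large. With a 3-fold limit the split was 11 higher and 13 lower. Fibroblast markers moved with these comparisons, as 15 of 20 were lower at 24 h than at 0 h with 1 higher, and 17 were lower at 96 h than at 0 h with none higher. Their part in the falls of carriers was not tested. The same 0 h value enters every ratio to 0 h, so for some of the falls below the value in 0 h –dox, where Col1a1 was at 1.45 FPKM and Lum was listed at 0, is given as well.

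Some amino acid carriers rose on the first day. Of the 18 members, 5 were higher and 2 lower at 24 h than at 0 h, beside backgrounds of 6.37% and 9.81%, and 11 did neither. The median log2 ratio of the class was 0.07, and the summed level of the class was 578.6 FPKM at 0 h, 862.0 at 24 h and 593.2 at 96 h. Slc7a3 (chrX:101079210-101086020), a carrier of arginine, lysine and ornithine, stood at 29.4 FPKM at 0 h and then at 169.8, 129.5, 87, 73.8, 76.8 and 64.4 from 24 h to 96 h, a 5.77-fold rise on the first day. Its relative Slc7a1, the widely expressed carrier of the same cationic amino acids, went the other way, from 29.2 FPKM at 0 h through 21.2 and 14.6 to 8.34 at 96 h. The ratio of Slc7a3 to Slc7a1 was therefore 1.01 at 0 h, 9.84 at 48 h and 0.638 in 96 h –dox. Slc7a7 (chr14:54369442-54417780), a light chain that releases cationic amino acids in exchange for neutral ones, rose from 7.45 to 55.2 FPKM in 24 h and fell back to 23.3 at 96 h. Its ratio to Slc7a6, the light chain with the same activity, ran from 0.193 in 96 h +dox to 7.02 in 0 h –dox. The mixture of paralogs with the same substrates thus differed widely between conditions.

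The sodium-coupled carriers of small neutral amino acids showed a similar exchange. Slc38a2 (SNAT2; chr15:96687392-96699730) went from 49.7 FPKM at 0 h to 198.5 at 24 h and 225.2 at 36 h, and back to 62 at 96 h. Slc38a4 (SNAT4; chr15:96994820-97055956), its neighbour on the chromosome, fell from 56.5 FPKM at 0 h to 15.4 at 48 h and stood at 30.3 at 96 h. Over the 15 conditions the ratio of Slc38a2 to Slc38a4 ran from 0.217 in 0 h +dox to 11.3 at 36 h, and the correlation of their log2 levels was -0.65, over conditions that share cells and time and are not independent. Slc38a1 (SNAT1), another of these carriers, rose 2.01-fold, from 18.6 FPKM at 0 h to 37.3 at 96 h. Slc38a7, a glutamine carrier of lysosomes, fell from 16.7 to 6.29 FPKM on the first day.

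Glutamate and neutral amino acid exchangers also differed among themselves. Slc1a3 (GLAST), a glutamate carrier, rose from 0.9 FPKM at 0 h to 7.84 at 24 h. Slc1a4 (ASCT1) was at 6.72 FPKM at 0 h, 6.8 at 48 h and 15.9 at 96 h. Slc1a5 (ASCT2), the main glutamine exchanger of many dividing cells, stayed between 32.4 and 54.5 FPKM during withdrawal. Of 8 pairs of members compared, the steadiest was LAT1: Slc7a5, its light chain, which imports leucine and other large neutral amino acids, and Slc3a2, its heavy chain. During withdrawal they lay between 68.2 and 86.7 FPKM and between 98.7 and 125.4. Their ratio stayed between 0.607 and 0.827 over all 15 conditions, with a correlation of the log2 levels of 0.98. The creatine carrier Slc6a8 fell from 45.7 to 15.3 FPKM and the taurine carrier Slc6a6 from 39.1 to 14.4 between 0 h and 96 h. Slc43a2, an efflux carrier of branched-chain amino acids, rose from 2.76 to 8.38 FPKM.

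**Figure D3:**
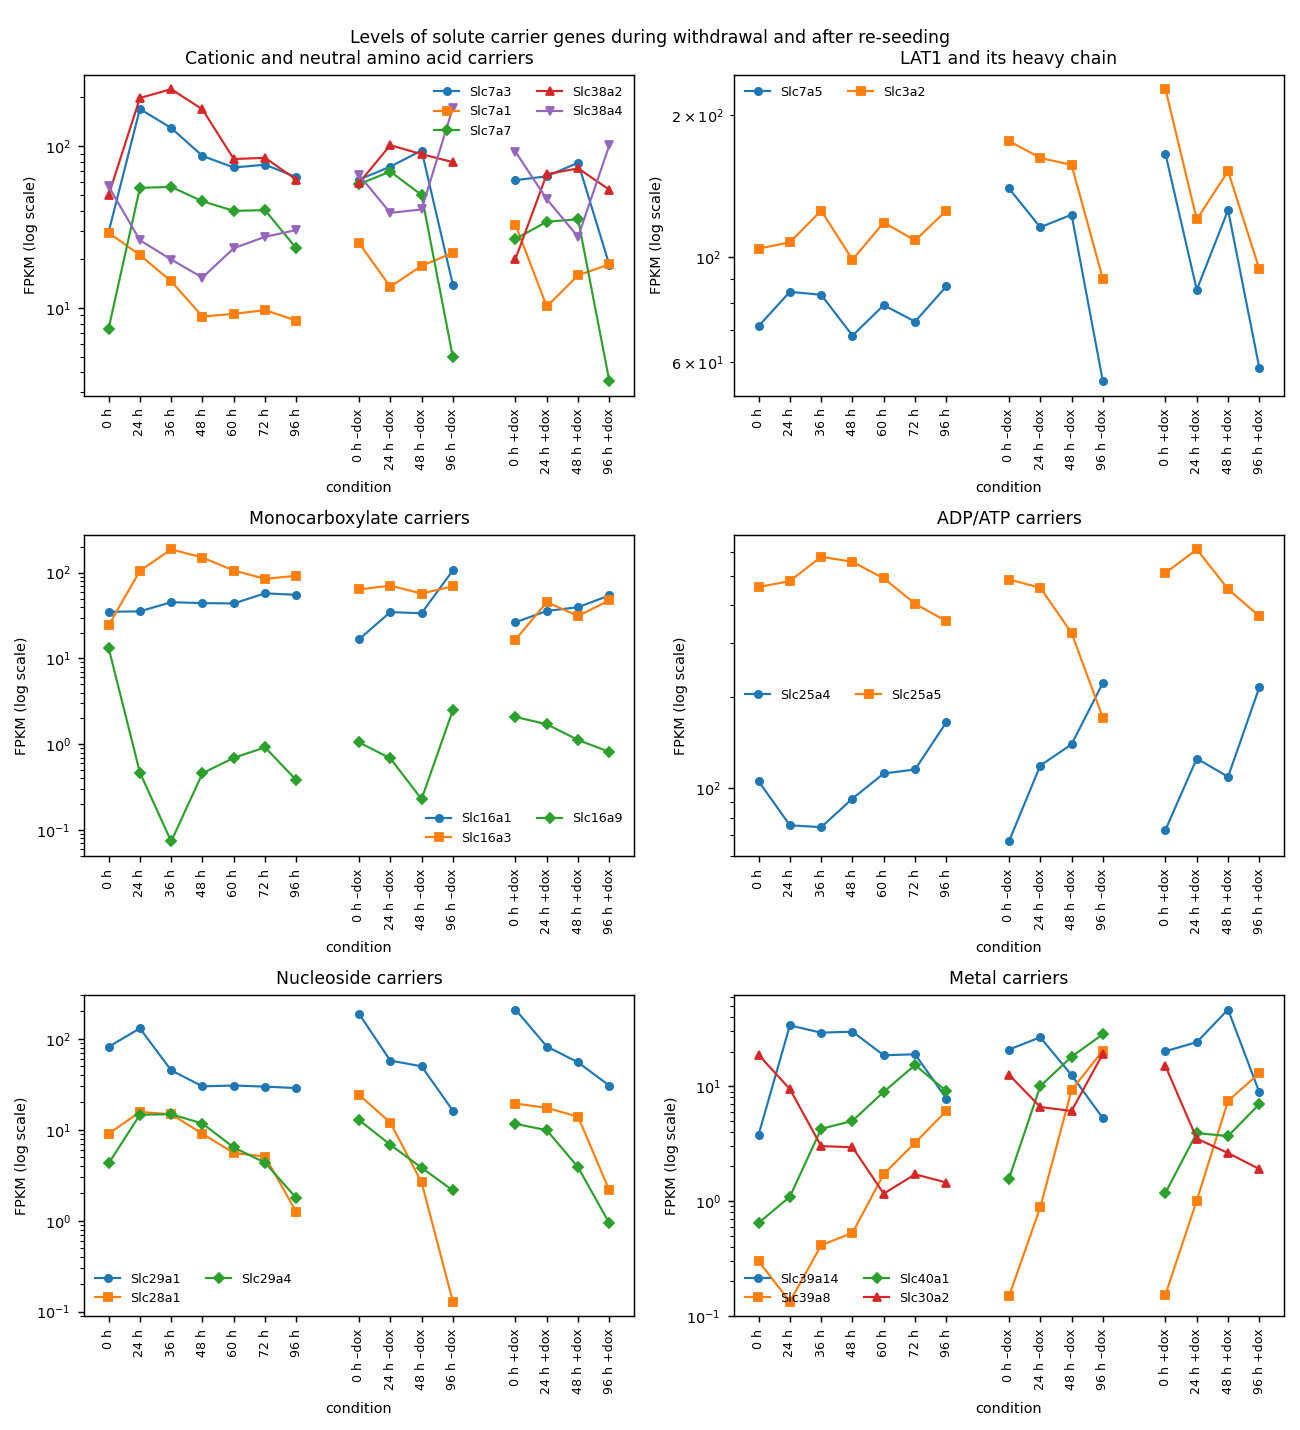
FPKM values (log axis) of 19 members in the 15 conditions, with lines joining the timepoints, the –dox conditions and the +dox conditions; each point is the authors' 1 value for both replicates. Slc7a3 and Slc38a2 rise at 24 h while Slc7a1 and Slc38a4 fall by 48 h, Slc25a4 passes Slc25a5 in 96 h –dox only, and Slc7a5 runs parallel to Slc3a2.

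Among monocarboxylate carriers, Slc16a3 and Slc16a9 moved in opposite directions. Slc16a3 (MCT4; chr11:120948480-120960868), the carrier that exports lactate from glycolytic cells, rose from 24.3 FPKM at 0 h to 105.1 at 24 h and 187.2 at 36 h, and stood at 92 at 96 h. Slc16a1 (MCT1), which moves lactate and pyruvate in either direction, lay between 35 and 57.5 FPKM throughout withdrawal. Slc16a9 (chr10:70245100-70285968), a less studied member of the family, was at 13.3 FPKM at 0 h, 0.468 at 24 h and 0.0736 at 36 h, and at 1.05 in 0 h –dox. The 28.5-fold fall of Slc16a9 was the largest of the first day. The ratio of Slc16a3 to Slc16a1 was 0.694 at 0 h and 4.13 at 36 h. Genes of the proteins that help these carriers to the membrane are not named Slc. Bsg (basigin), the usual partner of MCT1 and MCT4, lay between 268.5 and 453.3 FPKM during withdrawal, and Emb (embigin), which can take its place, rose from 23.2 at 0 h to 225.2 at 48 h.

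Of the 25 members of the mitochondrial carrier family, none was higher and 3 were lower at 24 h than at 0 h, beside backgrounds of 6.37% and 9.81%. Slc25a36 (chr9:97074961-97111157), which carries pyrimidine nucleotides into mitochondria, fell from 130.4 FPKM at 0 h to 38.1 at 24 h and 24.6 at 96 h. It stood at 104.1 FPKM in 0 h –dox. Slc25a20, the carnitine-acylcarnitine carrier that brings fatty acids in for oxidation, fell later, with 62.5, 43.8, 14.1 and 8.75 FPKM at 0, 24, 36 and 48 h, and 74.1 in 0 h –dox. Both were thus high in each 0 h condition and low after longer withdrawal. The aspartate-glutamate carriers of the malate-aspartate shuttle fell together, Slc25a12 from 13.5 to 4.57 FPKM and Slc25a13 from 47.3 to 22.3 between 0 h and 96 h. Slc25a33, another pyrimidine nucleotide carrier, went from 16.8 to 7.06 FPKM. Rises by 96 h were seen for Slc25a24, a calcium-regulated carrier of ATP-magnesium and phosphate, from 1.91 to 12.1 FPKM, for Slc25a51, the mitochondrial NAD carrier, from 8.53 to 18.8, and for Slc25a23, a relative of Slc25a24, from 6.02 to 12.2.

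The isoforms of the ADP/ATP carrier moved apart. Slc25a5 was at 459.2, 577.8 and 354.6 FPKM at 0, 36 and 96 h, while Slc25a4, the form typical of heart and muscle, was at 105.4, 74.4 and 164.9 at the same times. The ratio of Slc25a5 to Slc25a4 fell from 7.77 at 36 h to 2.15 at 96 h, and to 0.768 in 96 h –dox, where alone Slc25a4 was the higher. Over the 15 conditions the correlation of the log2 levels of these genes was -0.73.

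Among the 6 nucleoside carriers, 4 were lower and none higher at 96 h than at 0 h, beside a background of 12.4% in each direction, with a median log2 ratio of -1.35. Slc29a1 (ENT1; chr17:45585200-45599606), the main equilibrative nucleoside carrier, was at 81.5, 130.2, 45 and 28.7 FPKM at 0, 24, 36 and 96 h. Slc28a1 (CNT1), which concentrates pyrimidine nucleosides with sodium, went from 9.03 FPKM at 0 h and 15.7 at 24 h to 1.24 at 96 h, and Slc29a4, a carrier of monoamines and adenosine, from 4.26 and 14.6 to 1.77. All 3 therefore passed through a higher value at 24 h before they fell. Slc29a2 (ENT2), at 6.53 FPKM at 0 h and 10.7 at 96 h, and Slc43a3, at 4 and 3.95, were under the limit of change.

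Among metal carriers, members of like function peaked at different times. Slc39a14 (ZIP14), which imports zinc, iron and manganese, rose from 3.78 FPKM at 0 h to 33.9 at 24 h and declined to 7.81 at 96 h. Slc39a8 (ZIP8), its closest relative, stayed under 1 FPKM up to 48 h and reached 6.11 at 96 h, so the ratio of Slc39a14 to Slc39a8 went from 256 at 24 h to 1.28 at 96 h. Slc40a1 (ferroportin; chr1:45908068-45926523), the only known exporter of iron, rose from 0.645 FPKM at 0 h to 15.3 at 72 h and 9.07 at 96 h. In the other direction, Slc30a2 (ZnT2), which loads zinc into vesicles, went from 18.8 FPKM at 0 h through 9.45 at 24 h to 1.45 at 96 h, and stood at 12.6 in 0 h –dox. Slc39a11, a zinc importer, went from 25.3 to 2.63 FPKM on the first day and stood at 7.75 in 0 h –dox. Slc39a4, the zinc importer of the gut, fell from 28 to 10.3 FPKM over 96 h. The zinc carriers Slc39a7, of the ER, and Slc30a5, of the secretory pathway, moved little, between 56.1 and 86.5 FPKM and between 12.3 and 15.2 during withdrawal. Among 7 metal response genes outside the Slc families, Tfrc, the transferrin receptor, fell from 51.4 to 17.6 FPKM between 0 h and 96 h. Ftl1, a ferritin chain, was the 1 that was higher at 96 h, beside a background of 12.4% in each direction.

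Of the 17 ion carriers, 16 changed between some pair of timepoints, beside a background of 48.8%. At 96 h, 6 were lower and none higher than at 0 h, beside 12.4% in each direction. Slc4a5, a sodium bicarbonate cotransporter, stood at 19.9, 29.8, 22.1, 10.9, 5.19, 4.1 and 0.572 FPKM at the 7 timepoints, a 34.8-fold fall from 0 h to 96 h. Slc4a11, a proton carrier of the bicarbonate transporter family, went from 9.79 to 1.3 FPKM. Slc12a7 (KCC4), a potassium-chloride cotransporter, had fallen by 24 h, from 38.7 to 11.3 FPKM, and was at 40.2 in 0 h –dox. Its relative Slc12a4 (KCC1) stood at 8.55, 6.84 and 14.3 FPKM at 0, 24 and 96 h. Of the 17, 1 was higher and 5 were lower at 24 h than at 0 h, beside backgrounds of 6.37% and 9.81%. The 1 riser was Slc20a1 (PiT1), a sodium-phosphate cotransporter and retroviral receptor. Its level was 29 FPKM at 0 h, 78.3 at 24 h and 14.8 at 96 h. Slc9b1, a sodium/proton exchanger, went from 20 to 5.68 FPKM between 0 h and 96 h.

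Other classes held single large movers. Slc5a5 (NIS; chr8:70882889-70892757), the iodide carrier of the thyroid and a member of the sodium-glucose family, had the largest rise from 0 h to 96 h, from 0.191 to 9.17 FPKM, with 14.7 at 72 h. Slc5a11 (SMIT2), a myo-inositol carrier of the same family, peaked early, with 2.51 FPKM at 0 h, 14.8 at 36 h and 1.49 at 96 h. Slc5a6, the family's carrier of biotin and pantothenate, fell from 18.6 to 5.28 FPKM and was at 6.01 in 0 h –dox. Slc27a2 (FATP2), which takes up and activates very long-chain fatty acids, rose from 2.85 to 31.6 FPKM on the first day and stood at 12.6 at 96 h. Slc37a1, a glucose 6-phosphate exchanger, was at 2.23 FPKM at 0 h and 10.8 at 24 h. Slc22a17, a receptor of lipocalin-2, and Slc22a23, an orphan of the organic ion family, rose late, from 4.76 to 19.2 FPKM and from 2.96 to 14.3 between 48 h and 96 h. The choline carrier Slc44a1 went from 44.1 FPKM at 0 h to 16.6 at 96 h and Slc17a9, the vesicular nucleotide carrier, from 12.2 to 2.44. Among vitamin carriers, 3 of 6 were lower and none higher at 96 h, beside 12.4% in each direction, among them the thiamine carrier Slc19a2 (17.2 to 7.57 FPKM) and the ascorbate carrier Slc23a2 (9.68 to 3.86). Of the 13 members classed by family as carriers of the ER and Golgi, 1 was higher and none lower at 96 h, beside the same 12.4%. Their summed level lay between 149.8 and 194.4 FPKM over all 15 conditions. The 1 was Slc35f5, which went from 3.4 to 8.92 FPKM. Outside the classes, the scaffold gene Slc9a3r1 rose from 39.2 to 94.9 FPKM on the first day.

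Re-seeding of cells that had not differentiated moved them from 2i/LIF to serum/LIF. In 0 h –dox, 22 members (17.6%) were higher than at 0 h, beside a background of 8.42%, and 11 (8.8%) lower, beside 7.03%. Of the 18 amino acid carriers, 5 were higher and none lower. Slc7a7 went from 7.45 to 58.2 FPKM, Slc1a4 from 6.72 to 19.3 and Slc7a3 from 29.4 to 62.1. Slc29a1 rose from 81.5 to 188.4 FPKM, Slc28a1 from 9.03 to 24.2 and Slc2a8 (GLUT8), an intracellular glucose carrier, from 10.3 to 22.2. Slc5a11 rose from 2.51 to 14.2 FPKM and Slc39a14 from 3.78 to 20.9. Falls included Slc16a1, from 35 to 16.7 FPKM, Slc39a10, a zinc importer, from 20.5 to 8.72, and Slc25a22, a mitochondrial glutamate carrier, from 14.4 to 6.27. Medium and passage changed together, and 16 of 20 fibroblast markers were lower in 0 h –dox with none higher, and these cannot be told apart here.

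Cells differentiated for 96 h were compared in the same way. In 96 h –dox, 19 members (15.2%) were higher than at 96 h, beside a background of 9.17%, and 12 (9.6%) lower, beside 8.12%. Slc38a4 went from 30.3 to 173.0 FPKM, the highest level of any amino acid carrier in that condition, while Slc7a3 fell from 64.4 to 13.9, Slc7a7 from 23.3 to 4.95 and Slc1a5 from 37.9 to 15.6. Of the 15 metal carriers, 5 were higher and none lower, beside 9.17% and 8.12%, and the median log2 ratio of the class was 0.02. Slc30a2 went from 1.45 to 19.2 FPKM, Slc39a8 from 6.11 to 20.4 and Slc40a1 from 9.07 to 28.4. Slc5a5 went from 9.17 to 32.4 FPKM, Slc4a2 (AE2), an anion exchanger, from 7.03 to 26.2, Slc25a10, the mitochondrial dicarboxylate carrier, from 6.94 to 27.2 and Slc25a24 from 12.1 to 40.4. Slc6a8 rose from 15.3 to 49.4 FPKM. Falls were led by Slc27a2, from 12.6 to 0.403 FPKM, and Slc5a11, from 1.49 to 0.0311. Of all 15 conditions, 96 h –dox was the one in which 26 members were at their highest (17.2% of all genes were), as many as in 0 h +dox (12.4% of all genes). Markers of other cell types moved as well. Fibroblast markers were higher in 12 of 20 and lower in 3, and Dcn, at 1.76 FPKM at 96 h and 0.791 in 96 h –dox, was one of the 3, and the epithelial keratin gene Krt8 stood at 272.1 at 96 h and 1227.0 in 96 h –dox. Their part in the changes of carriers was not tested.

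**Figure D4:**
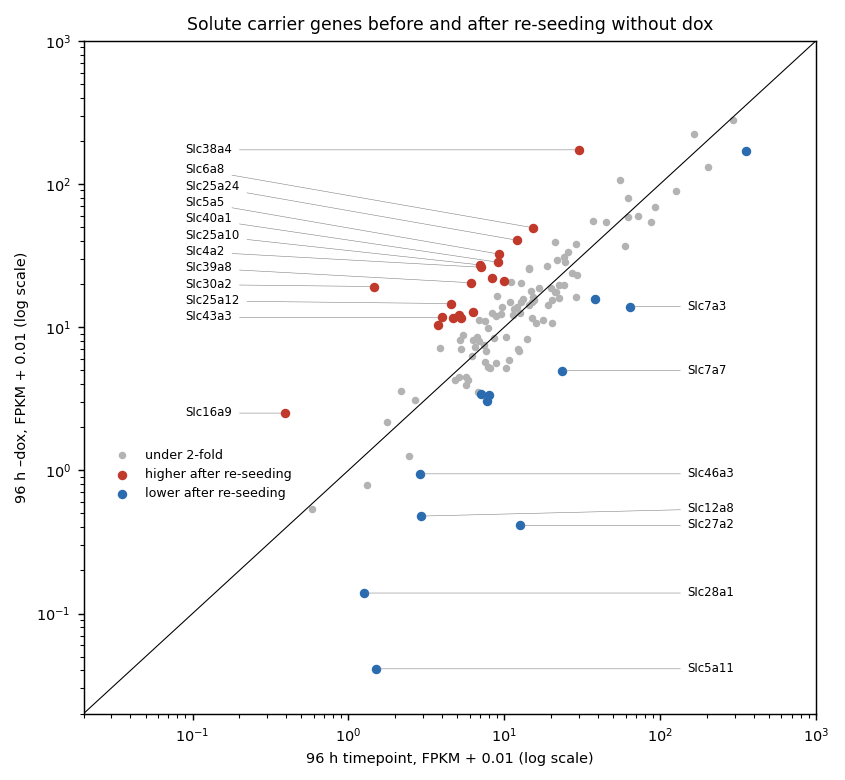
FPKM plus 0.01 of each member at the 96 h timepoint (horizontal log axis) and after re-seeding without dox (vertical log axis), with the diagonal marking equal values and names for members that differed by 1.5 or more on the log2 scale. The 19 higher members (red) include Slc38a4 and Slc30a2, and the 12 lower members (blue) include Slc27a2 and Slc5a11.

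The comparison of +dox with –dox asks what OSKM induction adds at each stage. It changed few carriers early and more late, and genes at large did the same. The background for either direction was 4.84%, 3.83%, 8.64% and 11.4% at 0, 24, 48 and 96 h. From 0 h cells, 2 members (1.6%) were higher in +dox, beside a background of 2.01%, and 6 (4.8%) lower, beside 2.83%. From 24 h cells, 4 (3.2%) were higher, beside 1.6%, and 4 lower, beside 2.23%, which makes 8 changed (6.4%) beside 3.83%. From 48 h cells, 11 (8.8%) were higher, beside 4.39%, and 9 (7.2%) lower, beside 4.26%, which makes 20 changed (16%) beside 8.64%. From 96 h cells, 13 (10.4%) were higher, beside 5.24%, and 10 (8%) lower, beside 6.12%. Over the 4 stages, 83 members (66.4%) changed at none, against 80.3% of all genes. At 1 stage 29 changed (23.2%, against 13%), at 2 stages 9 (7.2%, against 4.83%) and at 3 stages 4 (3.2%, against 1.59%). None changed at all 4, against 0.32% of all genes. The median log2 ratio of the members lay between -0.03 and 0.12 at the 4 stages and that of all genes between -0.02 and 0.08.

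In cells that had not differentiated, the 6 members lower in +dox included carriers of lactate and amino acids. Slc16a3 was at 63.9 FPKM in –dox and 16.6 in +dox, Slc38a2 at 59.2 and 20.1, and Slc7a7 at 58.2 and 26.7. Slc25a40, a relative of Slc25a39, was at 10.2 and 3.34 FPKM. The higher ones were Slc20a1, at 41.3 and 94.9 FPKM, and Slc25a22, at 6.27 and 14.5. Among 20 ATF4 target genes outside the Slc families, 1 was higher (background 2.01%) and 1 lower (2.83%) in this comparison. The LAT1 genes Slc7a5 (139.7 and 165.3 FPKM) and Slc3a2 (176.0 and 226.6) lay under the 2-fold limit. After 24 h of differentiation, Slc7a7 was again lower in +dox, at 34.1 FPKM against 69.7.

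Of the 4 members that changed at 3 stages, Slc5a5, Slc40a1 and Slc27a2 were lower in +dox each time. Slc5a5 stood at 1.25, 10.2, 20.4 and 32.4 FPKM in –dox after 0, 24, 48 and 96 h and at 1.13, 3.91, 2.56 and 3.73 in +dox, so the value from 96 h cells was far above that from 24 h cells in –dox and close to it in +dox. Slc40a1 stood at 1.57, 10, 18.1 and 28.4 FPKM in –dox and at 1.18, 3.91, 3.68 and 7 in +dox. For both genes the values of the 2 arms were close at 0 h and 8.71-fold and 4.06-fold apart at 96 h. Slc27a2 was lower in +dox at 0, 24 and 48 h, with 5.04 against 11, 11.2 against 25.1 and 3.17 against 7.68 FPKM, and both values were under 1 at 96 h. The fourth, Slc16a9, went both ways.

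At 48 h, the higher members in +dox came from several classes. Slc28a1 was at 2.64 FPKM in –dox and 13.9 in +dox, Slc39a14 at 12.5 and 46.6, Slc17a9 at 2.74 and 8.94 and Slc25a36 at 46.2 and 99.5. Slc46a3, a lysosomal carrier, was at 1.19 and 6.41 FPKM. At the 0 h timepoint Slc25a36 had stood at 130.4 FPKM and Slc39a14 at 3.78. The lower members included Slc22a23, at 10.8 FPKM in –dox and 3.32 in +dox, Slc25a24, at 16.9 and 6.37, and Slc46a1, the proton-coupled folate carrier, at 12.1 and 5.26. Fibroblast markers were lower in +dox in 7 of 20 and higher in 2, and 7 of 10 naive pluripotency markers were higher.

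At 96 h, Slc28a1 (0.129 FPKM in –dox, 2.15 in +dox), Slc4a11 (0.776 and 5.45) and Slc17a9 (1.25 and 8.68) had the largest ratios and low levels. The abundant Slc25a5 was at 170.5 FPKM in –dox and 368.0 in +dox, and Slc44a1, the choline carrier, at 18.7 and 42.5. Slc39a4 was at 5.2 and 18 FPKM and Slc17a5, the lysosomal sialic acid carrier, at 4.26 and 13.4. Lower members were led by Slc30a2, at 19.2 FPKM in –dox and 1.9 in +dox, followed by Slc5a5, Slc40a1 and Slc4a2 (26.2 and 6.89). Slc25a12 was at 14.6 and 4.31 FPKM and Slc43a3 at 11.7 and 3.62. These –dox values also enter the comparison with the 96 h timepoint above. Carriers that did not change with dox at this stage included Slc7a3, at 13.9 and 18.4 FPKM, Slc7a7, at 4.95 and 3.52, and Slc29a1, at 16.2 and 30.5. Of the 20 fibroblast markers, 12 were lower and 2 higher in +dox, and Krt8 stood at 594.9 FPKM in +dox against 1227.0, and their part in these differences was not tested.

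**Figure D5:**
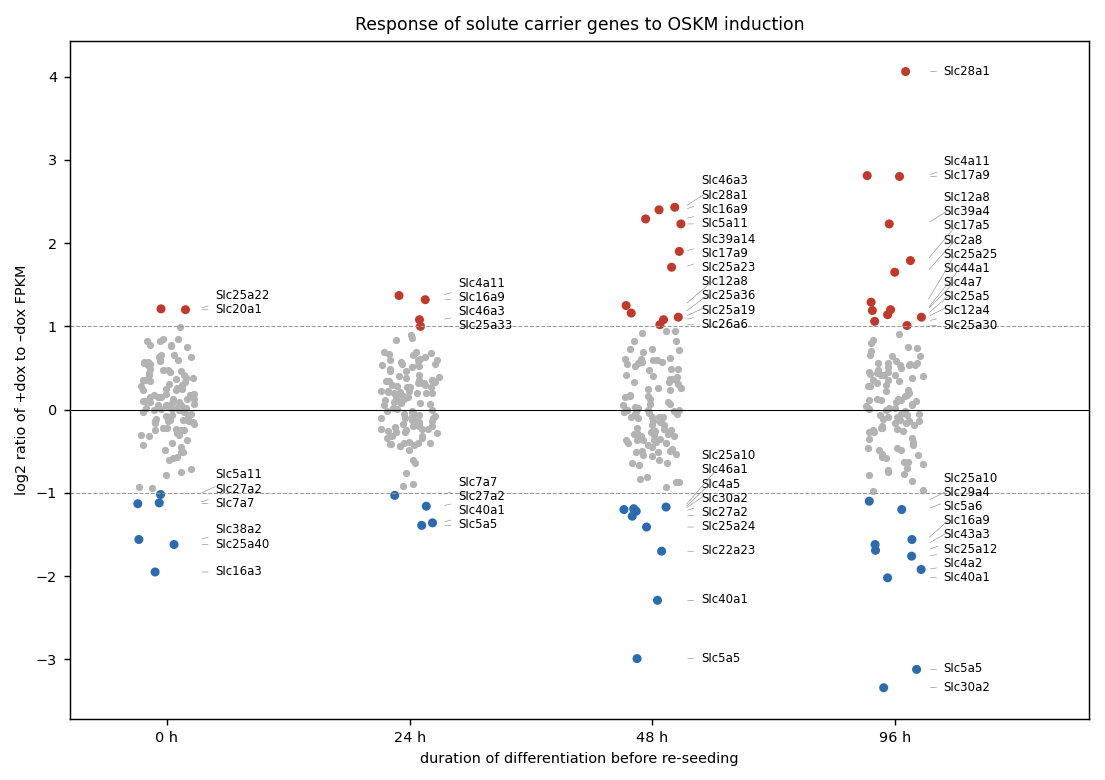
Log2 ratio of the +dox to the –dox FPKM value of each member after 0, 24, 48 and 96 h of differentiation; grey points lie under the 2-fold limit (dashed lines) or have no value of 1, and coloured points are named. Slc5a11 has no point at 96 h, since it is listed at 0 in 96 h +dox. The coloured points number 8, 8, 20 and 23 from left to right.

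Some families changed in both directions. Between 0 h and 96 h, members of the Slc5, Slc7, Slc16, Slc25 and Slc39 families were on either side. In the Slc25 family, 3 of 25 were higher and 5 lower, and in the Slc39 family 2 of 8 were higher and 2 lower, beside a background of 12.4% in each direction, so the Slc25 count of higher genes lay at the background. Of 19 transport genes outside the Slc families, 1 was higher (background 6.37%) and 1 lower (9.81%) at 24 h than at 0 h. At 96 h, 1 was higher and 6 lower than at 0 h, beside 12.4% in each direction. The 1 lower at 24 h was Aqp3, a water and glycerol channel, at 54.9 FPKM at 0 h, 1.76 at 24 h, 13.3 in 0 h –dox and 71.3 in 0 h +dox. It was higher in +dox than in –dox at all 4 stages, with 17.4 against 3.85 FPKM at 96 h. Mpc1, a subunit of the mitochondrial pyruvate carrier, went from 4.79 to 0.96 FPKM between 0 h and 96 h. The ATF4 target genes, which respond to amino acid shortage, showed 6 of 20 lower (background 9.81%) and none higher (6.37%) at 24 h. At 96 h, 6 were higher (background 11.2%) and none lower (9.23%) than at 48 h. Asns, the asparagine synthetase gene, stood at 594.2 FPKM at 0 h, 102.8 at 48 h and 235.1 at 96 h. Among 7 NRF2 target genes, which answer oxidative stress, 3 were higher at 24 h (background 6.37%) and 1 was lower at 96 h (12.4%) than at 0 h.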

How the data were processed

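Polyadenylated RNA of 30 samples, 2 per condition, was sequenced. Per the paper's methods, the authors used TopHat 2.0.14 (mm10) for mapping and Cufflinks 2.2.1 with the Gencode M4 annotation for quantification. Cuffdiff combined the replicates into the deposited FPKM values, so depth is not known and precision cannot be given. The table's file is named RPKM. Its 5 columns of the authors' own calls (time groups and response to dox) were not used.

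The values were used as deposited, with Python 3.11.15, numpy 2.4.6 and pandas 2.3.3. Changed meant a plain ratio of at least 2 with the higher value at least 1 FPKM. A gene at 0 in 1 condition got no log2 ratio but was counted as changed when the other value was at least 1 FPKM. No test was possible. The counting was tested on simulated data. Positions came from Gencode M21 and promoters from RefSeq, both on GRCm38.

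The members, classes and lists were chosen with earlier results of these data known. Named were members at 100 FPKM, the 10 largest rises and falls per comparison with the higher value at least 10 FPKM, members changed by dox at 2 or more stages, the 3 nearest to the limit on either side, families that split, and list genes. Other members named (such as Slc29a2, Slc7a6, Slc30a5, Slc39a7, Slc1a5 and Slc12a4), the class of Slc4a1ap and the comparison of 96 h –dox with 96 h were chosen after values were seen. Alternatives were tried for the fold, the minimum, a pseudocount, the scaling and the membership limit. The values of 1 member are not reported here.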

Additional observations from a re-analysis of the deposited data

Results flagged for a closer look

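Slc16a9 and Slc5a11 drew attention because the ratio of +dox to –dox pointed in opposite directions at different stages. For Slc16a9 the log2 ratio was 1.32 after 24 h and 2.29 after 48 h of differentiation, and -1.62 after 96 h. Its levels were low in all 6 conditions, at 0.685 and 1.71, 0.229 and 1.12, and 2.5 and 0.813 FPKM in –dox and +dox. For Slc5a11 the log2 ratio was -1.02 after 0 h (14.2 and 7.02 FPKM) and 2.23 after 48 h (0.688 and 3.22 FPKM). The differences between stages were not tested, since each condition has 1 value. Members that changed in both directions were 2 of 125 (1.6%), against 1.36% of all genes at the same limit.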

How the results depend on the processing

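No paired analysis was possible because each column combines both replicates, and for the same reason no replicate could be left out. With a 3-fold limit, 49 members changed between some timepoints, 17 at 24 h against 0 h, 15 at 96 h against 48 h and 24 at 96 h against 0 h. The counts for dox were then 2, 0, 9 and 13 at 0, 24, 48 and 96 h, those for re-seeding 12 from 0 h and 18 from 96 h, and the split at 24 h against 0 h turned from 16 higher and 20 lower to 11 and 6. With a higher value of at least 10 FPKM, 17 members changed between 48 and 96 h and 9 with dox at 48 h. With 1 FPKM added to both values, 5 changed with dox at 24 h and 13 at 48 h. Among members that reached 20 FPKM, 49 with 20 to 50 and 26 above that, 21 were highest at 0 h. At the main limit 42 of 125 members were. No share of all genes is given at the limit of 20 FPKM. Other totals of changed members stayed within 1.5 times the reported ones, but splits by direction moved more. With a higher value of at least 10 FPKM, members lower in 96 h –dox than at 96 h went from 12 to 5, members higher with dox at 24 h from 4 to 2, and the dox split at 48 h from 11 higher and 9 lower to 4 and 5. The dox split at 96 h went from 13 and 10 to 6 and 7 at 3-fold. At the same limit, the split of 96 h against 0 h went from 18 higher and 29 lower to 11 and 13. Scaling by median ratios left 84 members changed in the time course. Of 234 ratios of single members, 195 stayed close with 1 FPKM added and 39 moved, with no change of sign. Neither depth nor replicate spread is known, so ratios near 2-fold and of genes near 1 FPKM are the least certain.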
